A study of Mus musculus with 24 samples.

Results

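Fatty acid oxidation and ketone metabolism were described in newborn mice through a list of 30 genes chosen by name, of which 28 were measured by a probe set annotated to that gene alone, among 18193 genes in all. Cpt1b and Acsl1, the remaining 2 genes of the list, had no such probe set and are not analysed here. Affymetrix arrays were used to measure messenger RNA in the liver and the hindleg muscle of C57BL/6 pups at day 0 after birth. Their mothers ate a normal protein diet with 20% casein (NP) or a low protein diet with 8% casein (LP) from day 1 of pregnancy until birth. Each diet was given alone or with 1% taurine in the drinking water (NP+tau and LP+tau). Taurine is a sulfur-containing compound that bile acids are conjugated with and that excitable tissues hold at high concentration. Each of the 8 groups of tissue and diet held 3 arrays, 24 in all. The labels call them biological replicates and name no dam or litter, so littermates cannot be told from unrelated pups and a p-value reflects only the spread among these arrays. The labels also do not say whether liver and muscle with the same number came from 1 pup.

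At birth a mammal loses the placental supply of glucose and turns to the fat of milk. Fatty acids are released from lipoproteins, bound inside the cell, carried into the mitochondrion as carnitine esters, and shortened there in a repeating spiral of dehydrogenation, hydration, oxidation and thiolysis. Liver turns much of the acetyl-CoA so formed into ketone bodies, which it exports, while muscle, heart and brain burn them. The nuclear receptor PPAR alpha, encoded by Ppara, raises the transcription of many of these enzymes when fatty acids are plentiful.

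Values are log2 expression values, and a difference is between group means on that scale, given with the standard error (SE) of limma and n = 3 arrays per diet. A gene was called, and is said to have risen or fallen, at a Benjamini-Hochberg adjusted p under 0.05 over the 18193 genes of a contrast. The number of arrays limits the precision: an exact permutation test of 3 against 3 arrays cannot go below a two-sided p of 0.1. The tissues matched their labels. In liver 8 of 8 hepatocyte genes were above the array median on every array and their mean was 14.40 to 14.52, against 4.56 to 6.54 in muscle. In muscle 10 of 10 skeletal muscle genes were above it and their mean was 12.60 to 13.49, against 5.03 to 5.67 in liver. By Xist and Y-linked genes 12 arrays were from females and 12 from males, and sex was the same in liver and muscle for 12 of 12 pairs of the same diet and number. In each tissue the females were NP array 2, NP+tau arrays 1 and 2, LP arrays 1 and 3, and LP+tau array 2. Sex was thus uneven between the diets compared. The median correlation of an array with the others of its tissue was lowest for muscle LP array 1 (0.957) and LP+tau array 1 (0.966), and was 0.974 or more for the other arrays.

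Most members lay above the array median in both tissues, at different levels. The tissues were normalized separately, so levels are set side by side without a test, on the same probe set for each gene. The 12 liver values lay all above the 12 muscle values for 15 of 28 members, all below for 3, and overlapped for 10. By the difference of NP means the tissues were furthest apart in Bdh1 (7.32), which interconverts the ketone bodies acetoacetate and 3-hydroxybutyrate, and in Ehhadh (6.64), an enzyme of oxidation in peroxisomes. Bdh1 ran from 11.05 to 12.29 in liver and from 3.84 to 6.45 in muscle, and Ehhadh from 10.18 to 12.06 and from 4.22 to 7.74. In muscle Bdh1 was above the array median on only 4 of 12 arrays and Ehhadh on 3. Oxct1, Ucp3 and Fabp3 were the 3 members higher in muscle. Oxct1, the transferase that activates acetoacetate for burning, ran from 9.57 to 11.22 in muscle and from 7.47 to 8.95 in liver. Fabp3, the fatty acid binding protein of heart and muscle, ran from 9.48 to 11.41 in muscle against 4.80 to 6.66 in liver. On all 12 arrays of the tissue 26 members lay above the array median in liver, with Fabp3 and Fgf21 the exceptions, and 25 in muscle, with Ehhadh, Bdh1 and Fgf21 the exceptions. The shares of all genes with ranges apart, or above the array median, were not computed. These counts of levels therefore describe the members alone.

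In hindleg muscle nearly the whole list was lower in LP pups than in NP pups. The difference was negative for 27 of 28 members, where 52.4% of all genes were negative, and its median was -0.62, or 1.54-fold, against -0.01 over all genes. The 3 LP values lay all below the 3 NP values for 20 members, which held for 11.6% of all genes. No member passed the adjusted threshold in limma, however: 0 of 28 members and 23 of 18193 genes (0.126%) were called. At an unadjusted p under 0.05, 16 members were lower (6.22% of all genes) and 1 was higher (4.54%).

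**Figure D1:**
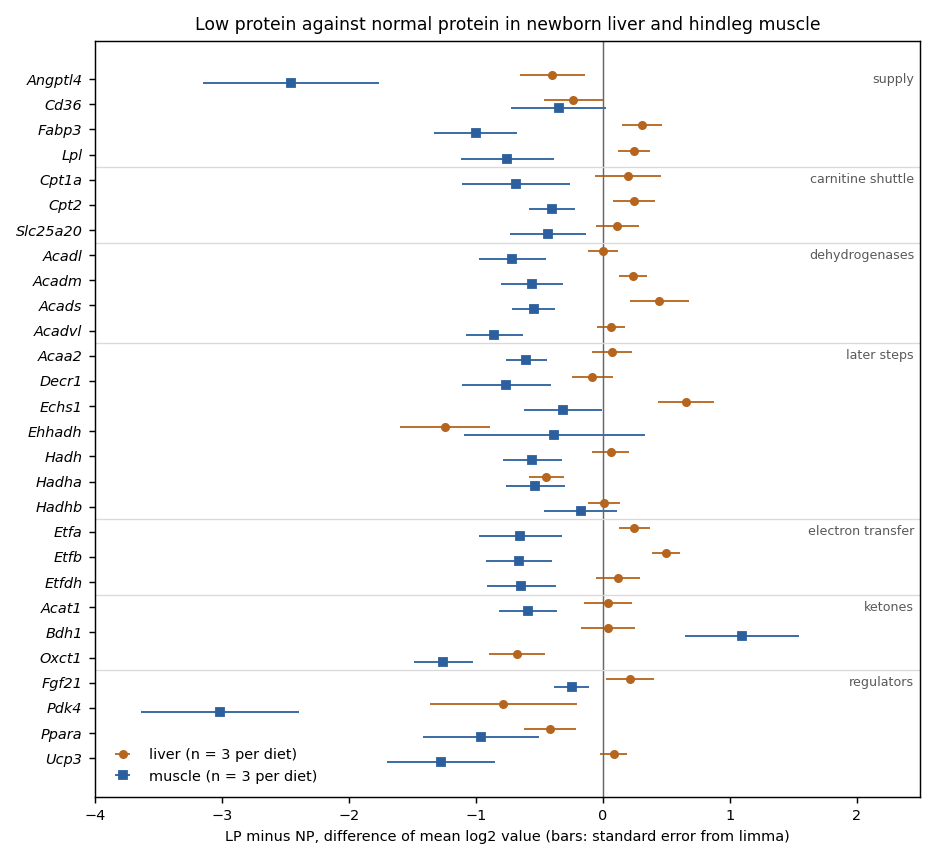
Difference between LP and NP pups for the 28 measured members, ordered by role. The horizontal axis is the difference of mean log2 values, circles are liver and squares are hindleg muscle, and bars are the standard error from limma with 3 arrays per diet. In muscle 27 of 28 squares lie left of 0, while in liver 20 of 28 circles lie right of it.

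Pdk4 had the widest difference. It encodes the kinase that shuts pyruvate dehydrogenase, which spares glucose while fat is burned. Pdk4 read 10.18, 11.09 and 10.67 on the NP muscle arrays, 10.97, 8.66 and 10.77 with NP+tau, 7.83, 7.90 and 7.16 with LP, and 8.76, 8.20 and 10.23 with LP+tau. All LP arrays were below every other muscle array. LP was 8.09-fold lower than NP (-3.02, SE 0.62, adjusted p = 0.0930 with limma). Its promoter is shown because no other member differed as widely, with CCAAT (here read on the other strand as ATTGG) in capitals, the only one of the motifs searched that it held; it lies at chr6:5496229-5496528 on the minus strand of GRCm38.p6 and, like the other windows, comes from RefSeq and runs from 250 bases before to 50 after the start site.

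Pdk4: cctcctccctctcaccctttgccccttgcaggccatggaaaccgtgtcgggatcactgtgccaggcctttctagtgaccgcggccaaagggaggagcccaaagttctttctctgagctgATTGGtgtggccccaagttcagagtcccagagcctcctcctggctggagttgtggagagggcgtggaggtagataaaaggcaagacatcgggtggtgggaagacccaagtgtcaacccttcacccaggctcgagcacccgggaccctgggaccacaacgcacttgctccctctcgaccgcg

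Oxct1, by which muscle burns the ketone bodies that liver makes, had the smallest p of the list. Oxct1 read 10.79, 10.70 and 11.22 with NP, 10.74, 10.31 and 10.77 with NP+tau, 9.57, 9.65 and 9.72 with LP, and 9.98, 10.66 and 10.93 with LP+tau. The LP arrays were the 3 lowest of the 12 and spanned only from 9.57 to 9.72. The difference from NP was -1.26 (SE 0.23, adjusted p = 0.0701 with limma), or 2.39-fold. All 4 probe sets of the gene were lower in LP muscle. The gene was called in limma with cyclic loess normalization (adjusted p = 0.0245), without LP+tau array 1 (0.0245), and without LP array 1 and LP+tau array 1 together (0.0215). Its promoter, chr15:4026178-4026477 on the plus strand, held none of the motifs searched and is shown because the gene was lower in LP in both tissues.

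Oxct1: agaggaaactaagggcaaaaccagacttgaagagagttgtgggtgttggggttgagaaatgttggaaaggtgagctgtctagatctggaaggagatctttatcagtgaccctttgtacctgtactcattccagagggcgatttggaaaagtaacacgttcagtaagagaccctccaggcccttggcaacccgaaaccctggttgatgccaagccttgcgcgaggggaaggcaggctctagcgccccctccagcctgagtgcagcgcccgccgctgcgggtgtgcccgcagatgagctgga

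The other ketone genes were Acat1, the thiolase of acetoacetyl-CoA, and Bdh1. Acat1 was lower in LP on each array (10.22 to 10.70 against 11.01 to 11.13 with NP; difference -0.59, SE 0.23). Bdh1 was the single member with a positive difference (1.09, SE 0.45). It read 6.45, 5.09 and 4.62 with LP and 4.23, 4.01 and 4.63 with NP, so that the groups overlapped, and the highest value was that of LP array 1.

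Among genes of fatty acid supply, Angptl4, a secreted inhibitor of lipoprotein lipase and a target of PPAR receptors, was 5.49-fold lower in LP (-2.46, SE 0.69, adjusted p = 0.193 with limma). Angptl4 read 8.17, 9.10 and 8.59 with NP, 9.29, 7.45 and 9.52 with NP+tau, 7.04, 5.53 and 5.92 with LP, and 6.06, 5.73 and 8.17 with LP+tau. The LP arrays lay below all NP and NP+tau arrays, and 2 of 3 LP+tau arrays were as low as LP. The second Angptl4 probe set, which was dim, differed by -0.08. Lipoprotein lipase itself, Lpl, was lower by the same comparison (11.45 to 11.86 with LP against 12.23 to 12.69 with NP; -0.75, SE 0.37), as was Fabp3 (9.48 to 10.45 against 10.73 to 11.25; -1.0035, SE 0.33). Cd36, the fatty acid transporter of the cell surface, differed by -0.35 (SE 0.37) and its groups overlapped.

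The 3 measured genes of the carnitine shuttle differed least of the roles, with a median of -0.43. Cpt1b, the other gene of this role, was not measured, so the muscle shuttle is covered only in part. Cpt2, the inner palmitoyltransferase, had a difference of -0.40 (SE 0.18) with groups apart. Cpt1a, which forms the carnitine ester, and Slc25a20, which carries it across the inner membrane, had differences of -0.68 (SE 0.42) and -0.43 (SE 0.30) with groups that overlapped.

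The 4 acyl-CoA dehydrogenases, which open each turn of the spiral for chains of decreasing length, were all lower, with differences from -0.86 to -0.55 and LP below NP without overlap in each. Acadvl, for very long chains, read 10.54, 10.80 and 10.36 with NP, 10.54, 10.06 and 10.99 with NP+tau, 9.63, 9.91 and 9.60 with LP, and 10.08, 10.36 and 10.61 with LP+tau. All LP values were under all other muscle values (-0.86, SE 0.23, adjusted p = 0.164 with limma). Acads, for short chains, read 8.43, 8.40 and 8.31 with NP, 8.65, 8.27 and 8.65 with NP+tau, 7.87, 8.16 and 7.47 with LP, and 8.19, 8.33 and 8.37 with LP+tau. Its LP arrays again were the 3 lowest (-0.55, SE 0.17, adjusted p = 0.253 with limma). Acadl, for long chains, and Acadm, for medium chains, differed by -0.71 (SE 0.26) and -0.56 (SE 0.24). The promoters of Acadvl (chr11:70015379-70015678, minus strand) and Acadm (chr3:153944594-153944893, minus strand) are shown because both held the nuclear receptor half-site AGGTCA, in capitals here on either strand (TGACCT on the other).

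Acadvl: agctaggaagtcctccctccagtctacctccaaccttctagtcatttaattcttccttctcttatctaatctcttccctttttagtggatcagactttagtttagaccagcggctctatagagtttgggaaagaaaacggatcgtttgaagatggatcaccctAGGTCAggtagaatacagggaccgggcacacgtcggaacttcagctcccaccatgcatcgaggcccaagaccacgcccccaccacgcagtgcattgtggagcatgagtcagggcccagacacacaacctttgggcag
Acadm: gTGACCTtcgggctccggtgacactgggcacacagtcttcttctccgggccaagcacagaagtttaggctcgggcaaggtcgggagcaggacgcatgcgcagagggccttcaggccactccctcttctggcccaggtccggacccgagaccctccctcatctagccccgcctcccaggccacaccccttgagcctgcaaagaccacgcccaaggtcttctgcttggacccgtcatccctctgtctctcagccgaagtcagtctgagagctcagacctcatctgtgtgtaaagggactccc

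Electrons of the first step pass to the electron transfer flavoprotein (Etfa and Etfb) and from it, through Etfdh, to ubiquinone. The 3 genes differed by nearly the same amount, from -0.66 to -0.64, each with LP below NP on every array. The values of Etfb were 10.60, 10.85 and 10.61 with NP, 10.71, 10.42 and 11.02 with NP+tau, 9.76, 10.16 and 10.17 with LP, and 9.78, 10.77 and 10.77 with LP+tau. Besides the LP arrays, LP+tau array 1 was low.

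Of the 7 genes of later and auxiliary steps 7 had a negative difference, from -0.76 to -0.18. Acaa2, a thiolase that ends the turn, read 10.68, 10.90 and 10.54 with NP, 10.89, 10.47 and 10.78 with NP+tau, 9.90, 10.40 and 10.01 with LP, and 10.72, 10.69 and 10.69 with LP+tau. On this probe set the LP arrays lay under all other muscle arrays, and the LP+tau arrays at the NP level (LP minus NP -0.60, SE 0.16, adjusted p = 0.158 with limma). The other Acaa2 probe sets differed by -0.50 and -0.84 between LP and NP. On them LP+tau array 1 was low, at 9.44 and 8.82, so the LP+tau level depends on the probe set. Hadh, the short-chain 3-hydroxyacyl-CoA dehydrogenase, Hadha, the alpha subunit of the trifunctional protein, and Decr1, a reductase needed for unsaturated chains, had differences of -0.56 (SE 0.23), -0.53 (SE 0.23) and -0.76 (SE 0.35) with groups apart. Echs1, the short-chain hydratase, Hadhb, the beta subunit, and the dim Ehhadh overlapped between the diets. For Hadhb this depends on the probe set. Another bright one, which was used in liver, was lower in LP muscle without overlap (9.90 to 10.30 against 10.32 to 10.90, -0.45).

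Ppara and Ucp3, a mitochondrial carrier of muscle that rises when fat is burned, were lower too. Ucp3 read 5.81, 5.81 and 5.76 with LP against 6.76, 7.56 and 6.90 with NP (-1.28, SE 0.43). Ppara was 6.62, 8.19 and 8.09 against 8.20, 8.26 and 9.33, where the groups all but touched (-0.96, SE 0.46) and overlapped on its other probe sets. Fgf21, a hormone of fasting, was above the array median on only 1 of 12 muscle arrays and overlapped. Of the 18 members with more than 1 probe set, 16 had all of them lower in LP muscle, and 52 of 55 probe sets were lower.

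**Figure D2:**
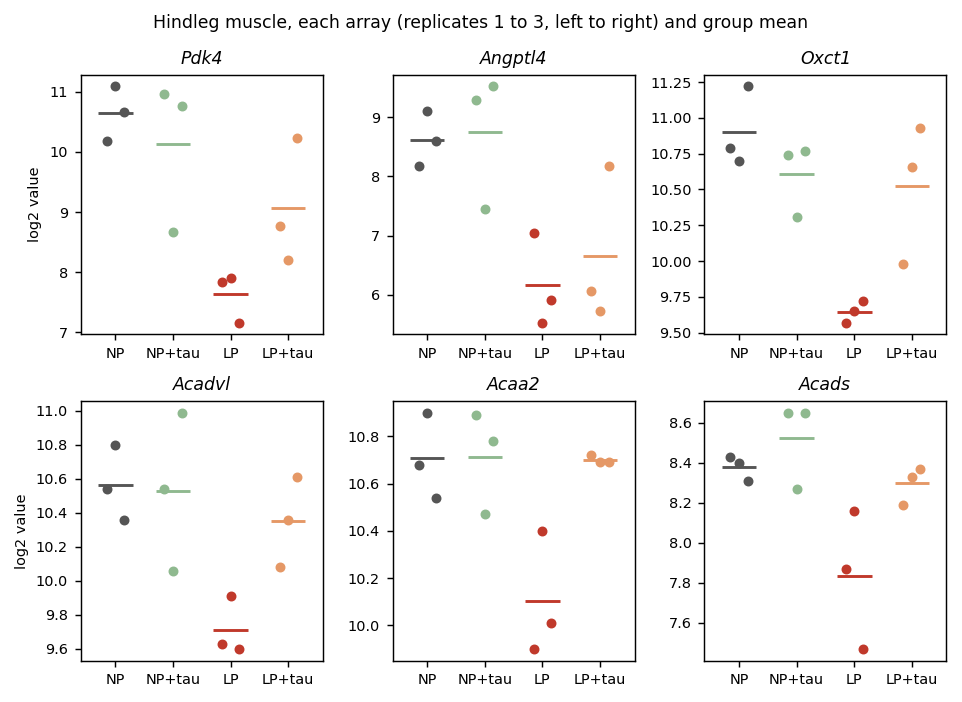
Log2 values of 6 members on each of the 12 hindleg muscle arrays. Points are arrays by maternal diet, lines are group means of 3 arrays, and each panel has its own vertical axis. In each of Pdk4, Oxct1, Acadvl, Acaa2 and Acads the 3 LP points lie below all points of the other diets, while in Angptl4 LP and LP+tau overlap.

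The counts in muscle moved with single arrays more than the directions did. Leaving out each array in turn kept 27 negative members, with medians from -0.72 to -0.54. The 16 members lower at an unadjusted p under 0.05 became 8 without NP array 2, 10 without LP array 1 and 11 with sex as a covariate. They were again 16 without the 2 arrays that correlated least with the others, where 27 members were negative with a median of -0.55. All genes called at the adjusted threshold were 293 in that setting, in place of 23. The share of all genes lower at an unadjusted p under 0.05 was not computed for these alternatives, so the counts cannot be set against it. Pdk4 was called in limma without NP+tau array 2 (adjusted p = 0.0425) and when only the LP and NP arrays were fitted (0.0457).

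Some marker lists of other cells and fibre types also differed in LP muscle, and others hardly did. Genes of fast fibres were much lower in LP muscle: the mean of 9 such genes was below the NP mean by -2.31, -1.58 and -2.14 on the 3 LP arrays, 9 of 9 differences were negative, and Pvalb, Mybpc2 and Actn3 fell. The mean of 8 slow fibre genes, which mark the more oxidative fibres, was -0.50, -0.03 and -0.32, but only 4 of 8 differences were negative (median -0.06). The mean of 7 fat cell genes was -0.52, -0.83 and -1.19 on the LP arrays, but -1.66 on NP+tau array 1 and 1.37 on NP+tau array 3. Adipoq, the defining hormone of fat cells, ran from 6.02 to 13.34 over the muscle arrays and read 10.71, 9.58 and 9.15 with LP against 10.74, 11.98 and 11.26 with NP. The mean of 8 endothelial genes was -0.54, -0.58 and -0.26, and that of 10 skeletal muscle genes -0.82, -0.18 and -0.25. The mean of 8 hepatocyte genes was 1.71 on LP array 3 and 0.03 and 0.19 on the others. The erythroid, macrophage and neutrophil lists had median LP minus NP differences of 0.035, 0.015 and -0.002. In bulk tissue fewer cells of a type and less RNA per cell cannot be told apart, and the part of these lists in the members' values was not tested. On NP+tau array 1, where Adipoq read 6.86, the mean of the members was 0.09 above the NP mean. On NP+tau array 3, where Adipoq read 13.34, it was 0.38 above, and 15 of 28 members had their highest muscle value there, Lpl (13.53), Ehhadh (7.74) and Decr1 (10.23) among them.

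**Figure D3:**
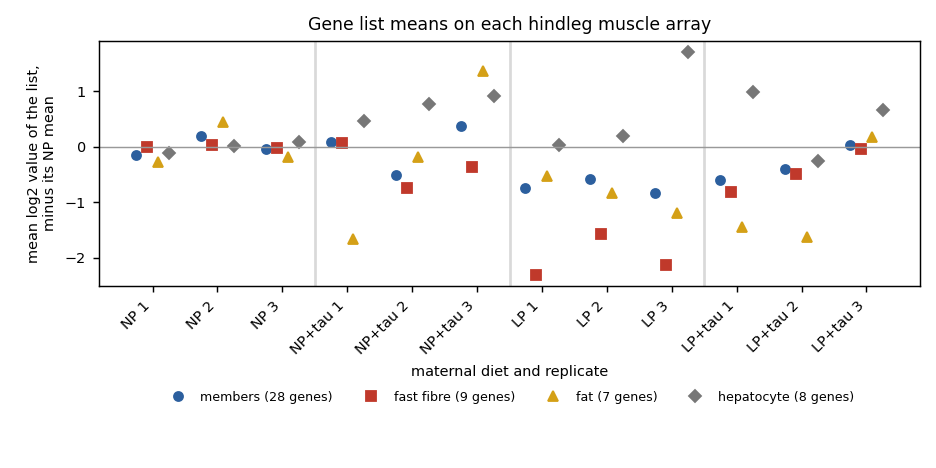
Mean log2 value of the 28 members and of 3 marker lists on each hindleg muscle array, minus the mean of that list over the NP arrays. Circles are the members, squares 9 fast fibre genes, triangles 7 fat cell genes and diamonds 8 hepatocyte genes. The members are lowest on the 3 LP arrays (-0.84 to -0.59) and LP+tau array 1 (-0.60), the fast fibre genes on the 3 LP arrays, and the fat cell genes on NP+tau array 1 and LP+tau arrays 1 and 2.

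Taurine given with the low protein diet was compared with that diet alone, which asks whether the supplement moved the members back. In muscle 25 of 28 members were higher in LP+tau than in LP (53% of all genes), with a median of 0.43 against 0.02 over all genes, and 10 had groups apart (9.03%). In limma 0 members and 4 genes (0.022%) were called. At an unadjusted p under 0.05, 8 members were higher (6.05%) and 0 lower (6.84%). This comparison and that of LP with NP share the LP arrays, so opposite signs in them are not independent.

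Oxct1 was higher by 0.88 (SE 0.23, adjusted p = 0.181 with limma), Acaa2 by 0.60 (SE 0.16, adjusted p = 0.180 with limma), Acadvl by 0.64 (SE 0.23) and Acads by 0.47 (SE 0.17), each with groups apart. The Acaa2 groups overlapped on its other probe sets, which differed by 0.34 and 0.40. Ppara was higher by 1.17 (SE 0.46; 9.48, 8.72 and 8.21 with LP+tau), and Pdk4 by 1.43 (SE 0.62), without overlap. For Ppara the lowest LP+tau value was 8.21 against 8.19 with LP, and the groups overlapped on its other probe sets. Fgf21 had the smallest p of this comparison. It read 4.69, 5.13 and 4.97 with LP+tau against at most 4.47 with LP (0.58, SE 0.14, adjusted p = 0.153 with limma), nearly all below the array median. Angptl4 (0.49, SE 0.69) and Lpl (0.31, SE 0.37) overlapped, and Cd36 (-0.28), Cpt1a (-0.32) and Bdh1 (-0.57) were the 3 negative members.

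The LP+tau arrays disagreed among themselves. The mean of the members was below that of NP by -0.60 on array 1 and -0.40 on array 2, and was 0.03 on array 3. Without LP+tau array 3 the median difference from LP was 0.215 in place of 0.43, and 4 members in place of 8 were higher at an unadjusted p under 0.05. This number was also 4 without LP array 3, 5 without LP array 1 and 6 with sex as a covariate. Without LP+tau array 3 Angptl4 changed sign, to -0.27. The fast fibre list also was higher in LP+tau than in LP (-0.81, -0.49 and -0.04 from NP), and Pvalb and Mybpc2 rose. The fat cell list was low on LP+tau arrays 1 and 2 (-1.44 and -1.63) and on NP+tau array 1 (-1.66). Their part in the difference was not tested. Against NP, 22 of 28 members were negative in LP+tau muscle (50.5% of all genes) with 0 called of 18193 genes and 3 lower at an unadjusted p under 0.05 (2.16%). Acat1 alone lay below NP without overlap (5.43% of all genes did).

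Taurine with the normal protein diet moved no member past a threshold on p. In NP+tau against NP, limma called 0 genes in either tissue, and 0 members had an unadjusted p under 0.05 in liver (1.54% of genes higher, 1.2% lower) or in muscle (0.209% and 0.275%). In muscle 13 members were negative (56.9% of all genes), and in liver 16 (41.9%). In liver Pdk4 lay below NP without overlap (-0.80, SE 0.58; 2.4% of all genes did) and the dim Fabp3 above it (0.30, SE 0.16; 5.44%). The direction for Fabp3 depends on the probe set. On the probe set that was bright in muscle the liver difference was -0.46 with overlap, and NP array 2 read 6.66. The interaction, which asks whether low protein acted differently with taurine than without it, called 0 genes in both tissues. In muscle it was positive for 23 members (53.5% of all genes) and passed an unadjusted p of 0.05 in 5 (3.84%), Oxct1 first (1.17, SE 0.33, adjusted p = 0.660 with limma). In liver it passed in 2 upward (4.06%) and 1 downward (4.4%). A test for any difference among the 4 diets passed an unadjusted p of 0.05 for 7 members in liver (12.9% of all genes) and 7 in muscle (8.51%), and an adjusted one for 0 members, against 0.385% and 0.033% of all genes.

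In liver the low protein diet left most members near the NP level, and single genes stood out in both directions. The difference was positive for 20 members (58.5% of all genes) with a median of 0.07, against 0.05 over all genes. Etfb rose, and it was the only member called of 28, where 425 of 18193 genes (2.34%) were. At an unadjusted p under 0.05, 2 members were higher (13.1% of genes) and 3 lower (9.53%). The groups lay apart upward for 3 members (18.3%) and downward for 3 (10.9%). For 28 genes these counts were near the shares of all genes.

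Etfb, the beta subunit of the flavoprotein, read 11.30, 11.32 and 11.52 with NP, 11.54, 11.75 and 11.43 with NP+tau, 11.79, 11.91 and 11.92 with LP, and 11.88, 11.95 and 11.78 with LP+tau. Both low protein groups lay above all NP and NP+tau arrays, with or without taurine. The rise in LP was 0.49 (SE 0.11, adjusted p = 0.0464 with limma), or 1.41-fold, and LP+tau was 0.49 (SE 0.11) above NP. The call was narrow. It was lost without any 1 of NP arrays 1, 2 and 3, NP+tau array 1, LP arrays 2 and 3, and LP+tau arrays 1 and 2, with differences of 0.454 to 0.565 over all 12 single-array omissions, and adjusted p up to 0.164. Its partners Etfa (0.25, SE 0.12) and Etfdh (0.12, SE 0.17) overlapped between the diets. The Etfb promoter (chr7:43443822-43444121, plus strand) is shown because the gene was called here, with a pair of CCAAT boxes (ATTGG on this strand) and a GC box (GGGCGG) in capitals.

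Etfb: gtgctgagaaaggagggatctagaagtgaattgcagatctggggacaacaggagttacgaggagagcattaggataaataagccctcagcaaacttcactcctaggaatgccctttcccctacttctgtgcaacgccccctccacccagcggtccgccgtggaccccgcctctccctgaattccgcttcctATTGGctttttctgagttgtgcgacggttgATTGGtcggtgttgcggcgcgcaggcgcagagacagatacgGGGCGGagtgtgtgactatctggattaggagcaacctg

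**Figure D4:**
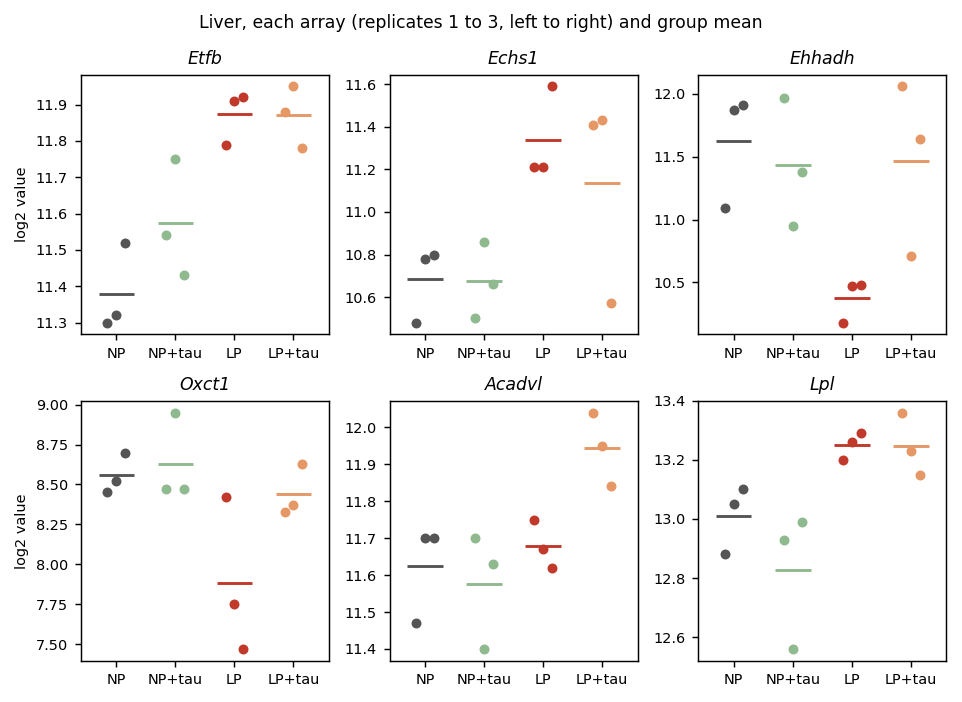
Log2 values of 6 members on each of the 12 liver arrays. Points are arrays by maternal diet, lines are group means of 3 arrays, and each panel has its own vertical axis. Etfb and Lpl are higher in both low protein groups than in NP and NP+tau, Ehhadh is lowest in LP, and 2 of 3 LP arrays are low in Oxct1.

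Ehhadh, the peroxisomal bifunctional enzyme and a classic target of PPAR alpha, was 2.37-fold lower in LP liver. It read 11.09, 11.87 and 11.91 with NP, 11.97, 10.95 and 11.38 with NP+tau, 10.18, 10.47 and 10.48 with LP, and 12.06, 10.71 and 11.64 with LP+tau. The LP arrays were the 3 lowest (-1.24, SE 0.35, adjusted p = 0.0833 with limma). Ppara itself differed by -0.41 (SE 0.21) and overlapped on the probe set used. Its other probe sets differed by -0.62 with overlap and by -0.63 with LP below NP without overlap. Echs1, the hydratase of short chains, was higher instead: 10.48, 10.78 and 10.80 with NP, 10.50, 10.86 and 10.66 with NP+tau, 11.21, 11.21 and 11.59 with LP, and 11.41, 11.43 and 10.57 with LP+tau. LP lay above all NP and NP+tau arrays (0.65, SE 0.22, adjusted p = 0.125 with limma), and LP+tau array 3 was as low as NP.

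Oxct1, which adult liver largely lacks, read 8.45, 8.52 and 8.70 with NP, 8.47, 8.95 and 8.47 with NP+tau, 8.42, 7.75 and 7.47 with LP, and 8.33, 8.37 and 8.63 with LP+tau. LP array 1 was close to NP and the other LP arrays were lower (-0.68, SE 0.22, adjusted p = 0.114 with limma). Without that array the difference was -0.95 and the gene was called (adjusted p = 0.0121 with limma). All 4 probe sets were lower in LP. Acat1 and Bdh1, which serve the making of ketone bodies in liver, differed by 0.04 (SE 0.19) and 0.04 (SE 0.21) on the probe sets used. The other Acat1 probe sets differed by 0.35 and -0.07 and a dimmer one of Bdh1 by -0.60, all with overlap.

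Lpl, which fetal liver makes and adult liver largely does not, read 12.88, 13.05 and 13.10 with NP, 12.93, 12.56 and 12.99 with NP+tau, 13.20, 13.26 and 13.29 with LP, and 13.36, 13.23 and 13.15 with LP+tau. Both low protein groups lay above the others by a small step (0.24, SE 0.12, adjusted p = 0.268 with limma). Cd36 (-0.23), Angptl4 (-0.40) and the dim Fabp3 (0.31, but -0.38 on the probe set bright in muscle) overlapped. So did the carnitine shuttle, at 0.11 to 0.24, and the dehydrogenases, at 0.00 to 0.44, of which Acads had the widest difference (SE 0.23). Pdk4 differed by -0.78 (SE 0.58). It read 8.76 on LP array 1 and 10.73 and 10.96 on the others, against 10.74 to 11.05 with NP.

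Hadha and Hadhb, the subunits of the trifunctional protein, which carries the last steps for long chains, are transcribed head to head from chromosome 5. Their start sites lie 273 bases apart in GRCm38.p6, and the sequence between them that belongs to both promoter windows, chr5:30155003-30155230 on the plus strand, is shown for that reason, with its GC box in capitals.

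Hadha and Hadhb shared: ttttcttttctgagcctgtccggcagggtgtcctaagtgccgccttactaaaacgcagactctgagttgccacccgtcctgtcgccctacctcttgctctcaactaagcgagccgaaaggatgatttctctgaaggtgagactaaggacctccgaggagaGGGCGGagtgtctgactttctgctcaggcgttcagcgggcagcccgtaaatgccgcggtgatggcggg

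Despite the shared window the probe sets of the pair did not move alike in liver, a comparison chosen after the values were seen. Hadha read 11.04, 11.32 and 11.36 with NP, 11.09, 11.47 and 11.14 with NP+tau, 10.72, 10.77 and 10.89 with LP, and 11.57, 11.37 and 11.19 with LP+tau. Its LP arrays were the 3 lowest (-0.45, SE 0.14, adjusted p = 0.107 with limma). Hadhb on the probe set used differed by 0.01 (SE 0.13). Within arrays, Hadha less Hadhb was -0.44, -0.51 and -0.53 with NP and -0.98, -0.97 and -0.90 with LP, which is a change of -0.45 (exact permutation test, two-sided p = 0.1, the smallest that 3 against 3 arrays allow). A second bright probe set of Hadhb was lower in LP on each array, by 0.52 on average, and with it the change was 0.08 (exact permutation test, two-sided p = 0.8). Which probe set follows the transcript was not tested, and unequal change of the pair rests on the probe set.

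**Figure D5:**
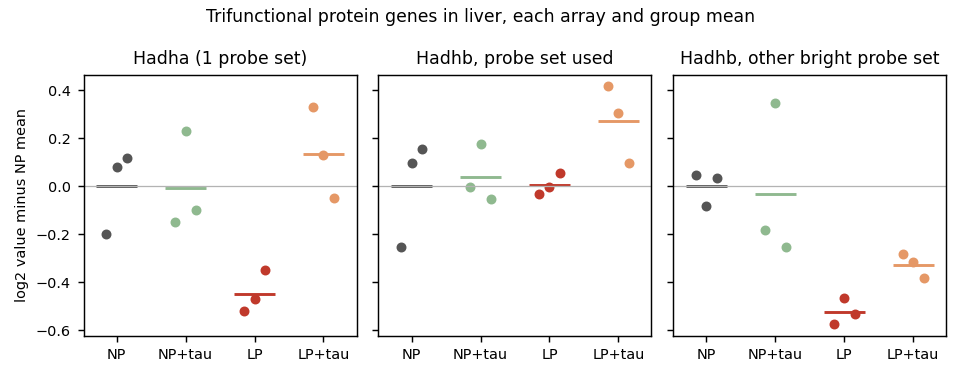
Hadha and 2 probe sets of Hadhb on each liver array, as log2 value minus the mean of the NP arrays of that probe set. Points are arrays and lines group means of 3. LP lies below NP for Hadha and for the second Hadhb probe set, and at the NP level for the Hadhb probe set used in the counts.

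Liver counts hung on NP array 1, which had the lowest of the 12 liver values for 9 of 28 members. Without it 16 members were negative in place of 8, the median turned from 0.07 to -0.02, and the genes called among all 18193 were 21 in place of 425. Without LP array 2, LP array 3 or NP array 3 they were 30, 29 and 48, and without LP array 1 they were 2013. Over the mean of all probe sets of each gene 14 members were negative. Of 18 members with several probe sets, 9 had probe sets of both signs in liver, against 1 in muscle. Hepatocyte genes hardly differed in LP liver (mean -0.07 to -0.04 from NP). The mean of 8 endothelial genes was -0.54, -0.46 and -0.35, that of 8 neutrophil genes -0.26, -0.52 and -0.99, and that of 7 erythroid genes -0.59, -0.32 and -0.08. Their part in the liver values was not tested.

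With taurine added to low protein, 18 liver members were higher than in LP (48.4% of all genes) and 6 had groups apart upward (6.77%), with 0 apart downward (7.01%). The median was 0.04, against -0.01 over all genes, and limma called 0 members and 12 genes (0.066%). At an unadjusted p under 0.05, 4 members were higher (5.16%) and 0 lower (3.32%). Hadha was higher by 0.58 (SE 0.14, adjusted p = 0.219 with limma), Ehhadh by 1.09 (SE 0.35, adjusted p = 0.423 with limma), Oxct1 by 0.57 (SE 0.22) and Acadvl by 0.26 (SE 0.11). Acadvl was not lower in LP to begin with: it read 11.47, 11.70 and 11.70 with NP, 11.70, 11.40 and 11.63 with NP+tau, 11.75, 11.67 and 11.62 with LP, and 12.04, 11.95 and 11.84 with LP+tau. The LP+tau arrays were the 3 highest. Bdh1 (0.45, SE 0.21), Acat1 (0.39, SE 0.19) and Hadhb (0.26, SE 0.13) also lay above LP without overlap. Without LP array 1, Oxct1 was called in this comparison (0.84, adjusted p = 0.0454 with limma). The comparison shares the LP arrays with that of LP and NP. Against NP, 21 members were positive in LP+tau liver (60.9% of all genes), 5 lay above NP without overlap (12.2%) and, at an unadjusted p under 0.05, 4 were higher (4.65%) and 0 lower (2.12%).

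Whether low protein acted differently in the tissues was tested in a fit of all 24 arrays, as the LP minus NP difference in muscle less that in liver. It was negative for 26 of 28 members (55.6% of all genes) with a median of -0.67, and 15 were lower at an unadjusted p under 0.05 (10.1%). Etfb was called (-1.15, SE 0.29, adjusted p = 0.0447 with limma), 1 of 359 genes called among all (1.97%). It was the member that rose in liver, and all 3 LP muscle arrays lay below the 3 NP arrays. Acadvl (-0.92, SE 0.26, adjusted p = 0.0740 with limma) and Acads (-0.99, SE 0.30, adjusted p = 0.0947 with limma) came next. Pdk4 (-2.23, SE 0.91), Angptl4 (-2.06, SE 0.78) and Ucp3 (-1.36, SE 0.46) had wide differences and errors. Hadha (-0.09, SE 0.28), Cd36 (-0.12, SE 0.46) and Oxct1 (-0.58, SE 0.33) were lower in LP in both tissues. For these 3 genes no difference between the tissues passed. In the single-tissue fits 8 members were negative in both tissues, Pdk4 and Angptl4 also among them, and 1, Bdh1, was positive in both. For Hadhb and Fabp3 this fit read another probe set than 1 of the single-tissue fits. The call of Etfb was lost with sex as a covariate (adjusted p = 0.0551) and without 15 of 24 single arrays. The 15 members became 9 without muscle NP array 2 and 9 without muscle LP array 3. For LP+tau minus LP the tissues were compared likewise: 0 members were called (0.258% of all genes) and 7 were negative (50.3%). At an unadjusted p under 0.05, 3 were higher in muscle than in liver (7.18%), Hadh, Acaa2 and Fgf21. Fgf21 was dim in muscle. The muscle difference of Acaa2 was 0.60 on the probe set used and 0.34 and 0.40 on the others. That of Hadh was 0.57, and 0.51 on its other bright probe set.

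The wider pathway was read from 7 lists of genes outside the members. In LP muscle 0 of their 79 genes were called (0.126% of all genes) and 58 had a negative difference, or 73.4% against 52.4% of all genes. The negative ones were 10 of 12 other genes of mitochondrial oxidation (median -0.28), 8 of 10 of peroxisomal oxidation (-0.23), 8 of 10 other PPAR targets (-0.395), 14 of 17 regulators of fatty acid use (-0.205), 11 of 17 genes of activation and import (-0.25), 7 of 11 of lipolysis and lipoprotein uptake (-0.26) and 2 of 4 of ketone synthesis and transport (0.08). All 7 medians were nearer to 0 than the members' -0.62, and the counts of activation, lipolysis and ketone genes were near the share of all genes. Ppargc1a, the coactivator that drives mitochondrial genes, differed by -0.91 (SE 0.78) in muscle and -0.18 (SE 0.64) in liver. It varied widely within groups, from 7.11 to 9.32 over the NP muscle arrays. Slc22a5, the carnitine importer, differed by -0.22 (SE 0.17) and -0.09 (SE 0.31).

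In LP liver 6 of the 79 genes were called, or 7.59%, where 2.34% of all genes were. Fabp1, the fatty acid binding protein of liver and a PPAR target, fell by 0.96 (SE 0.21, adjusted p = 0.0455 with limma), from 13.76 to 14.09 with NP to 12.55 to 13.40 with LP, and was 13.59 to 14.07 with LP+tau. Acsl4, an acyl-CoA synthetase, fell by 0.71 (SE 0.13). Fabp4, the binding protein of fat cells, endothelium and macrophages, fell by 1.27 (SE 0.18), beside the endothelial list given above. Ivd, a dehydrogenase of leucine breakdown, rose by 1.06 (SE 0.22), Acot4, a peroxisomal thioesterase, by 1.09 (SE 0.23), and Bdh2, a dehydrogenase of the ketone body family, by 0.51 (SE 0.11) at levels below the array median.

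Promoter windows were found for 23 of the 28 measured members, and not for Acaa2, Acat1, Decr1, Lpl and Angptl4. The half-site AGGTCA, read on both strands, was in those of 6 members, Acadm, Acadvl, Cd36, Cpt1a, Echs1 and Ucp3, against 16.3% of 32851 mouse promoter windows. Its direct repeat with 1 base between, the form that PPAR alpha binds with RXR, was in 0 members and in 0.0396% of all windows. The extended half-site TCAAGGTCA, which contains the first, was in 0 members (0.423%). The GC box GGGCGG was in 16 members (35.7%) and CCAAT in 8 (37.4%). A match describes the letters of the window alone.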

How the data were processed

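Total RNA of 24 samples was hybridised to Affymetrix mouse arrays. The deposited values per probe set are log2, and the authors used RMA and R 2.7.0 (per the submitters' processing notes, where MAS5 is also named without its role). Liver and muscle were normalized separately, per the labels. Of 45101 probe sets 34945 carried 1 symbol. Where a gene had several, its brightest by the mean of a tissue's 12 arrays stood for it.

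Models with 4 diet means were fitted to each tissue (limma 3.58.1, R 4.3.3), with 5 contrasts and a moderated F test. A fit of all 24 arrays with 8 means gave differences between tissues, on the probe set brightest over those 24. No filter on low values was applied. The scripts were tested on simulated data. The members, gene lists and tests were chosen with earlier results of these data known. Values per array are given for members called in any contrast and the 6 others per tissue with the smallest F test p (Etfb, Hadha, Lpl, Ehhadh, Oxct1, Echs1 and Acadvl in liver; Oxct1, Pdk4, Angptl4, Acaa2, Acadvl and Acads in muscle; no F test passed an adjusted p of 0.05), and for other pathway genes that were called, with Ppargc1a and Slc22a5. Other members given array by array were chosen after their values were seen. Alternatives were cyclic loess, the mean of all probe sets, leaving out the dimmest 40% of genes, eBayes with trend and robust, sex, only the 2 diets compared, a replicate block and leaving out arrays.

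Promoter sequences are RefSeq windows of GRCm38.p6.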

Additional observations from a re-analysis of the deposited data

Results flagged for a closer look

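The effect of low protein on Etfb differed between the tissues by a test of that difference. The LP minus NP difference was 0.49 in liver and -0.66 in muscle, and muscle less liver was -1.154 (SE 0.291, adjusted p = 0.0447 with limma, 3 arrays per group). The call was lost without any 1 of 15 of the 24 arrays (adjusted p up to 0.115) and with sex as a covariate (adjusted p = 0.0551). In liver 3 of 3 LP arrays lay above the NP arrays and in muscle 3 of 3 lay below them.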

How the results depend on the processing

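Same-numbered arrays of different diets did not deviate together (median r 0.05 in liver and 0.02 in muscle, over 18 pairs each), and same-numbered liver and muscle of a diet did so weakly (0.02 to 0.20, median 0.10, over 12 pairs; median -0.07 over 24 pairs of different numbers). Sex also matched in 12 of 12 of those pairs, so liver and muscle may share pups. Since only 5 of 12 correlations were over 0.1, the numbers were not taken to pair the samples. The replicate block differed between the fits. In a single tissue it was the replicate number as a factor, and the members called in liver for LP minus NP were 0 in place of 1. In the fit of all 24 arrays it joined same-numbered liver and muscle of a diet, at a consensus correlation of 0.082. There 1 member was called in muscle less liver, as before.

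The 1 member called in liver for LP minus NP was also 0 with cyclic loess, without the dimmest 40% of genes, with sex as a covariate and with only the 2 diets compared, and 0 to 3 when single arrays were left out. In muscle LP minus NP, 0 members called became 1 with cyclic loess, with only the 2 diets, and without LP array 1 and LP+tau array 1 together (an alternative chosen after seeing the data), and were 0 to 1 over single-array omissions. LP+tau minus LP gave 1 in muscle with cyclic loess, and 0 to 1 in liver over single-array omissions, as did the F test in liver. Muscle less liver gave 2 with cyclic loess, 0 with sex, and 0 to 3 over single-array omissions.

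With the mean of all probe sets, liver LP minus NP gave 14 negative members, 5 lower and 4 higher at an unadjusted p under 0.05. Over single-array omissions the higher members were 1 to 5 and the negative ones 7 to 16. In muscle the lower members were 8 to 18, in muscle less liver 9 to 16, and those higher in LP+tau 4 to 12. Members negative in LP+tau minus LP were 5 to 14 in liver and 2 to 6 in muscle. For the alternatives, the shares of all genes that were negative or passed an unadjusted p of 0.05 were not computed.

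Signs turned for values near 0 in liver LP+tau minus LP: Etfb was 0.013 with sex and -0.044 to 0.044 over omissions, Lpl 0.004 with cyclic loess and -0.060 to 0.043, and Echs1 -0.346 to 0.084. Acadvl in liver LP minus NP ran from -0.015 to 0.099, and Hadha in muscle less liver from -0.262 to 0.083. Angptl4 in LP+tau minus LP ran from -0.266 to 0.952 in muscle and from -0.455 to 0.764 in muscle less liver. The cause was not tested. All genes called in muscle for LP minus NP were 23, but 2 with the replicate block, 5 with sex and 293 without LP array 1 and LP+tau array 1, and in liver 425, but 244 with sex. Muscle values of Ehhadh, Bdh1 and Fgf21, and liver values of Fabp3, Fgf21 and Ucp3, lay around or below the array median, which limits what their differences can show.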
